A study of Mus musculus with 10 samples.

Results

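The 9 genes described here are those of the hair cell's output synapse, a potassium channel and calcium buffers, in supporting cells sorted from murine utricles. They were given as a list of symbols, Otof, Slc17a8, Cacna1d, Bsn, Cabp2, Ctbp2, Kcna10, Calb1 and Calb2, and all 9 were found by symbol among the 48709 genes of the tables. Utricles of P21 Lfng-EGFP mice, whose supporting cells carry a fluorescent reporter under the control of Lfng, were cultured for 5 d in 0.1% DMSO (control) or in 10 µM of the Lats-kinase inhibitor TRULI, and 2 further groups were kept for another 5 d after the compound or the vehicle had been withdrawn. Fluorescent cells were sorted and their RNA was sequenced in 10 libraries: 3 control and 3 TRULI libraries at 5 d, and 2 control and 2 TRULI libraries after withdrawal, by the sample labels. All groups share the reporter line and the sort. The methods call the replicates biological. The labels do not tie them to animals or cultures, so the p-values here measure the spread between these libraries.

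The names under which 4 of the 10 tables were deposited contradict their labels. Replicates 1 and 2 of TRULI at 5 d, by label, bear the names of replicates 1 and 2 of the withdrawal controls. In turn, the 2 tables labelled as withdrawal controls bear the names of TRULI 5 d replicates 2 and 3. The library labelled TRULI 5 d replicate 3 was deposited as TRULI 5 d replicate 1, and the other 5 carry the same group and number in both. Groups below follow the labels, and the grouping by deposited name is given beside them wherever they differ. Both use the same libraries and are not independent of each other.

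Hair cells release glutamate onto afferent neurons at ribbon synapses, where synaptic vesicles are tethered to an electron-dense ribbon beside clusters of voltage-gated calcium channels. Calcium that enters through these channels binds the vesicle protein otoferlin and triggers exocytosis, while cytoplasmic calcium-binding proteins restrict its spread. Supporting cells surround the hair cells and form no ribbon synapses of their own. In libraries of sorted cells, a smaller share of cells of a type and less RNA per cell cannot be told apart.

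The tables sum to between 2463872 and 6255149 expected counts for each library. After scaling by TMM, 3 counts correspond to between 0.469 and 1.20 CPM (counts scaled to the library's total), a floor that covers counting error only. Transcripts of mt-Rnr2, a ribosomal RNA of mitochondria, made up between 1.45% and 2.53% of counts in the libraries labelled TRULI 5 d replicates 1 and 2 and TRULI withdrawal replicates 1 and 2, and between 13.0% and 26.4% in the other 6. Lfng, which drives the reporter, lay between 21.2 and 100 CPM in those same 4 libraries and between 290 and 563 CPM in the other 6. Sox2, another supporting-cell gene, ranged from 31.5 to 89.5 CPM, and the 17 supporting-cell markers summed to between 5222 and 16076 CPM. The 20 hair-cell markers outside the list of 9 summed to between 469 and 1443 CPM, and each was counted in at least 1 library.

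Compared per length, as FPKM, Ctbp2 was the most abundant of the 9 genes with a median of 28.0 FPKM over the 10 libraries. Calb2 followed with a median of 24.0 FPKM, Cabp2 with 13.3, Kcna10 with 12.0 and Otof with 10.8. Slc17a8 at a median of 2.58 FPKM, Cacna1d at 1.25 and Bsn at 0.063 lay below them, and Calb1 had a median of 0. Each gene's range over the libraries overlapped that of its neighbor in this order, so that no 2 neighbors were separated. The effective length used for FPKM also varied between libraries for some genes. It ran from 297 to 734 bases for Cabp2, 509 to 1681 for Kcna10, 1651 to 3993 for Calb1 and 7261 to 15705 for Bsn. Among the 15784 protein-coding genes with a count, these medians put Ctbp2 at percentile 80.5, Otof at 62.4 and Cacna1d at 31.3.

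Otof (chromosome 5, 30367062 to 30461932, minus strand, GRCm38) encodes otoferlin, the calcium sensor of hair-cell exocytosis. It stood at 82.7, 32.5 and 63.2 CPM in control 5 d replicates 1 to 3, and at 3.28, 11.5 and 225 CPM in the libraries labelled TRULI 5 d replicates 1 to 3. After withdrawal the libraries labelled control held 172 and 49.3 CPM and the TRULI libraries 445 and 51.9 CPM. The 2 labelled TRULI 5 d libraries that were deposited as control withdrawal were the lowest of all 10, the third was the second highest, and TRULI withdrawal replicate 1 was the highest, with 2561 counts. The labelled groups overlapped at both times. At 5 d the labelled means were 59.5 ± 25.3 CPM in controls and 80.1 ± 126 CPM with TRULI (SD, n = 3 each), so the spread among the TRULI libraries exceeded their mean. By deposited name the TRULI 5 d mean was 149 ± 90.3 CPM (SD, n = 3), and after withdrawal the means were 7.39 ± 5.80 CPM in controls and 249 ± 278 CPM with TRULI (SD, n = 2 each). Otof is among the genes that the study named from these libraries, so its direction here is no independent evidence.

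Slc17a8 (chromosome 10, 89574020 to 89621253, minus strand) encodes VGLUT3, the transporter that fills synaptic vesicles with glutamate. Control 5 d replicates held 17.2, 8.54 and 8.67 CPM, and those labelled TRULI 5 d held 1.41, 1.80 and 35.7 CPM. After withdrawal the labelled controls were at 19.1 and 2.91 CPM and the TRULI libraries at 24.3 and 9.36 CPM. The order of the libraries was close to that for Otof: the same 2 labelled TRULI 5 d libraries were lowest, and the third was highest. The labelled groups overlapped at both times, and by deposited name the 2 withdrawal controls, 1.6 ± 0.274 CPM on average (SD, n = 2), lay below both TRULI libraries. RefSeq lists 2 start sites for this gene. The bases before each are shown because the rank of the libraries for Slc17a8 was the closest of the 9 genes to that for Otof (Spearman's rho 0.964 over 10 libraries). In capitals is the E-box CATCTG, which reads CAGATG on the other strand and lies 42 bases before the internal start.
Slc17a8, outer start, chr10:89621254-89621499, minus strand: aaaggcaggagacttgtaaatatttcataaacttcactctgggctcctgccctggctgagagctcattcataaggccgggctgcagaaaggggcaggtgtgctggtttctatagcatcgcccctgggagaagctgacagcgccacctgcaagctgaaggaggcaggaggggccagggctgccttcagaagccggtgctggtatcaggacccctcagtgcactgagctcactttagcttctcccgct
Slc17a8, internal start, chr10:89599816-89600065, minus strand: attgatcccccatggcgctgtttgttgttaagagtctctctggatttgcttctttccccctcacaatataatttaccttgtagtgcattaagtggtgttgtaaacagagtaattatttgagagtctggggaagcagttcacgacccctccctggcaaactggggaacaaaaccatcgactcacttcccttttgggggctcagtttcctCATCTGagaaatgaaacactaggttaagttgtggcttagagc

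Cacna1d (chromosome 14, 30039939 to 30491455, minus strand) encodes Cav1.3, the pore-forming subunit of the calcium channel at hair-cell ribbons. Its levels were 12.0, 3.29 and 11.6 CPM in control 5 d replicates 1 to 3 and 3.91, 0 and 15.0 CPM in the libraries labelled TRULI. After withdrawal the labelled controls held 13.9 and 4.93 CPM and the TRULI libraries 21.4 and 3.66 CPM. One labelled TRULI 5 d library had no count, which at the floor allows up to 1.08 CPM. All groups overlapped, whether taken by label or by name. The gene's span overlaps 7 annotated genes, among them Chdh and Dcp1a on the opposite strand, and whether the counting used strand is not given in the sources used here.

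Bsn (chromosome 9, 108096022 to 108190384, minus strand) encodes bassoon, the scaffold that anchors ribbons to the active zone. Its counts were 1, 1 and 3 in control 5 d replicates, 1, 0 and 22 in the libraries labelled TRULI 5 d, 3 and 0 in the labelled withdrawal controls and 7 and 1 in the TRULI withdrawal libraries. In 8 of the 10 libraries the count was at or under 3, and the gene did not pass the filter on low counts with all libraries of a comparison in the fit. The 22 counts, 5.78 CPM, came from the library labelled TRULI 5 d replicate 3. Bsn spans 4 other annotated genes.

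Cabp2 (chromosome 19, 4081578 to 4087340, plus strand) encodes a calmodulin-like protein that keeps Cav1.3 channels open. Control 5 d replicates were at 5.59, 8.87 and 2.97 CPM, and the libraries labelled TRULI 5 d at 3.91, 0.359 and 12.1 CPM. The labelled withdrawal controls held 4.97 and 1.79 CPM, and the TRULI withdrawal libraries 23.3 and 24.4 CPM. These 2 TRULI withdrawal libraries were the highest of the 10 and close to each other, and they lay above every control under either grouping. The labelled withdrawal means were 3.38 ± 2.25 CPM in controls and 23.9 ± 0.781 CPM with TRULI (SD, n = 2 each), and by deposited name the control mean was 2.13 ± 2.51 CPM (SD, n = 2). The transcript is short, and its effective length in the tables varied between libraries from 297 to 734 bases. Per length the TRULI withdrawal libraries, at 45.8 and 48.0 FPKM, also lay above the labelled controls, at 4.10 and 9.45 FPKM. RefSeq lists 2 starts for Cabp2, which is shown because its withdrawal groups did not overlap by label or by name. Both starts and the bases before them lie inside the annotated span of the gene. The 250 bases before the first are shown, with the E-box CAGATG, 147 bases before that start, in capitals. The window before the second held none of the motifs searched.
Cabp2, chr19:4082238-4082487, plus strand: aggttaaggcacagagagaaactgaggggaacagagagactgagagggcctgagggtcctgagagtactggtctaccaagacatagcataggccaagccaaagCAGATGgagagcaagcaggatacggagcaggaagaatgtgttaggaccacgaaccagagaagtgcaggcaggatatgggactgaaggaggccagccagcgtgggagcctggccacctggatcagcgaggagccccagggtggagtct

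Ctbp2 (chromosome 7, 132987563 to 133124354, minus strand) encodes 2 proteins: the transcriptional corepressor CtBP2, made in most cells, and RIBEYE, the main component of the ribbon, which is read from an internal start. In the annotation the transcript that starts at 133015248 codes for 988 codons, and the one that starts at 133123367 for 445. The deposited table holds 1 value for the gene, so the transcripts cannot be told apart. That value was the steadiest of the 9. Control 5 d replicates held 36.4, 57.5 and 61.0 CPM, and the libraries labelled TRULI 5 d held 40.7, 40.2 and 46.8 CPM. The labelled withdrawal controls held 50.2 and 31.6 CPM, and the TRULI libraries 35.3 and 50.6 CPM. The groups overlapped at both times, and the highest library was 1.93 times the lowest, against 136 times for Otof and 324 times for Calb2. Its span overlaps Fgfr2 and B930086L07Rik on the same strand.

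**Figure D1:**
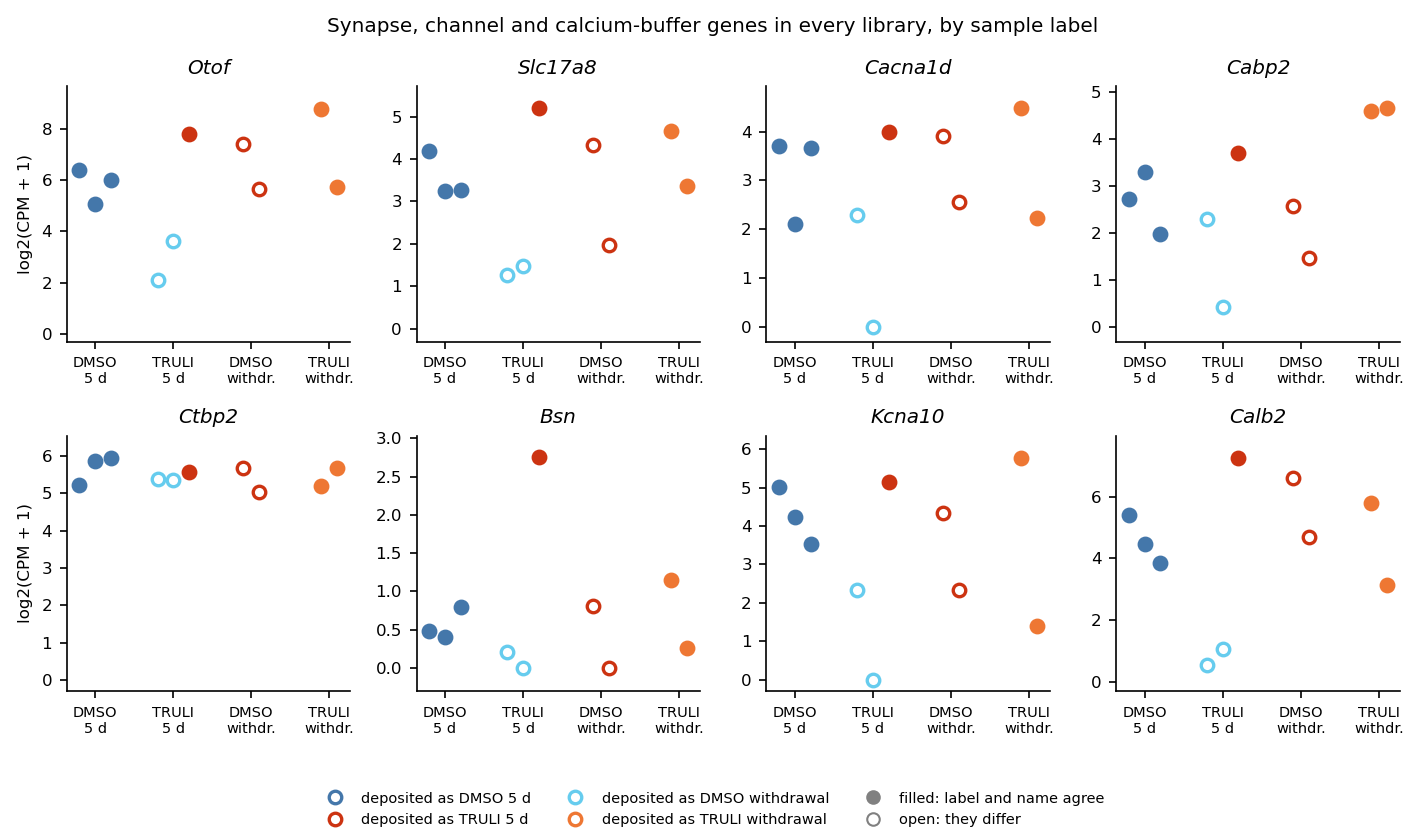
Level of 8 of the 9 genes in each of the 10 libraries, as log2(CPM + 1) on the vertical axis, with libraries grouped by sample label on the horizontal axis; Calb1, with 1 count in all, is left out. Colors give the group of the deposited name, and open circles mark the 4 libraries whose name and label differ. Otof, Slc17a8 and Calb2 are lowest in the 2 open circles of the labelled TRULI 5 d group, Ctbp2 varies least, and for Cabp2 both TRULI withdrawal libraries lie above the labelled controls.

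Kcna10 (chromosome 3, 107183056 to 107195721, plus strand) encodes a voltage-gated potassium channel of vestibular and auditory hair cells. It was at 31.6, 17.7 and 10.7 CPM in control 5 d replicates and at 4.07, 0 and 34.2 CPM in the libraries labelled TRULI. After withdrawal the labelled controls held 19.1 and 4.03 CPM and the TRULI libraries 53.9 and 1.63 CPM. The 2 TRULI withdrawal libraries were the highest and the second lowest of the 10, with a mean of 27.8 ± 37.0 CPM (SD, n = 2). Groups overlapped at both times under either grouping. The stretch before its RefSeq start that lies outside the annotated gene is shown as that of the only potassium channel of the 9, and it held neither E-box spelling nor the Tead motif described below.
Kcna10, chr3:107182893-107183055, plus strand: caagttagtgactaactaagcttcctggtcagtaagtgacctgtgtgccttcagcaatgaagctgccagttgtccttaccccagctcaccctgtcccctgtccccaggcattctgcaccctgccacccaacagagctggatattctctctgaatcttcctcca

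Calb1 (chromosome 4, 15881264 to 15908064, plus strand) encodes calbindin D28k, a cytoplasmic calcium buffer. It had a single count in the library labelled TRULI 5 d replicate 3 and none in the other 9, so that a change could not be detected at this depth. Calb2 (chromosome 8, 110137502 to 110168210, minus strand) encodes calretinin, a calcium buffer of vestibular hair cells and of some of the afferents that contact them. Control 5 d replicates held 41.2, 21 and 13.4 CPM, and the libraries labelled TRULI 5 d held 0.469, 1.08 and 152 CPM. After withdrawal the labelled controls held 95.5 and 25.1 CPM, and the TRULI libraries 54.1 and 7.73 CPM. The 2 libraries labelled TRULI 5 d and deposited as control withdrawal had 3 counts each, at the floor, and the third had 579. Calb2 spanned the widest fold range, 324-fold in CPM, of the 5 tested genes that were counted in every library. Labelled groups overlapped at both times, and by deposited name the means were 25.2 ± 14.3 CPM in controls and 90.9 ± 63.7 CPM with TRULI at 5 d (SD, n = 3 each) and 0.773 ± 0.430 CPM and 30.9 ± 32.8 CPM after withdrawal (SD, n = 2 each). The study named Calb, with no number, among the genes higher after withdrawal. Of Calb1 and Calb2, only Calb2 had counts in the withdrawal libraries. Its fitted log2 fold change after withdrawal was opposite to that direction by label, at -0.93, and in that direction by name, at 5.42. The study drew on these libraries, so the direction by name is no independent evidence either.

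For 6 of the 9 genes RefSeq start sites gave 10 windows of 250 bases. The E-box CAGATG, searched on both strands, was in 2 of them and in 14.4% of 32851 such windows over the genome. CAGCTG, the same on both strands, was in 1 window, 183 bases before a Cacna1d start, and in 13.0% of all. The Tead motif GGAATG, searched on both strands, was in 0 of the 10 windows and in 12.6% of all. A match describes letters only.

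The first comparison asked whether 5 d of TRULI changed these genes. Genes were called when the adjusted p of edgeR's quasi-likelihood test was under 0.05 and the log2 fold change exceeded 1 in size, with all genes in the fit. Of the 9 genes, 7 passed the filter on low counts and 0 were called by label, where 0.00903% of the 11071 tested genes were called higher and 0% lower. None of the 7 had an unadjusted p under 0.05 in edgeR. DESeq2, which called 1.76% of genes higher and 0.542% lower, called 0 of the 7 and gave no p for Slc17a8 and Calb2. Calb2 had the largest fitted change, a log2 fold change of 1.06 (SE 1.5, adjusted p = 0.749), and Kcna10 the lowest, -0.61 (SE 1.16, adjusted p = 0.816). Otof was at 0.45 (SE 1.17, adjusted p = 0.872) and Ctbp2 at -0.26 (SE 0.34, adjusted p = 0.730). The median over the 7 genes was -0.051 on the log2 scale, against 0.046 over all tested genes. In no gene did the groups separate, whereas 8.66% of tested genes had every labelled TRULI library above every control and 9.47% below.

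Grouped by deposited name, 0 of the 7 genes were called at 5 d by edgeR, where 2.05% of 11529 genes were called higher and 1.02% lower. At an unadjusted p under 0.05 there were 2 genes. The share of all genes at that threshold is not given, so nothing is read from this count. Calb2 was at a log2 fold change of 1.89 (SE 0.58, adjusted p = 0.120) and Otof at 1.34 (SE 0.49, adjusted p = 0.193). Slc17a8 was at 0.77 (SE 0.67, adjusted p = 0.630), and the other 4 genes lay between -0.25 and 0.34. In 0 of the 7 did the named groups separate, against 11.4% of tested genes with every TRULI library above every control and 9.97% below. The 7 Schwann-cell markers summed to between 98.3 and 168 CPM in the named TRULI libraries and to between 210 and 314 CPM in the controls, and their part in these values was not tested. Under these names libraries with the same number deviated together, with correlations of 0.315, 0.152 and 0.251 across genes. Taken as a replicate block, a pairing that rests on the names and on these same libraries, that number made edgeR call Calb2 higher. It stood at 1.72 (SE 0.25, adjusted p = 0.00168), where 4.1% of genes were called higher. Otof then stood at 1.19 (SE 0.39, adjusted p = 0.0827). DESeq2 on the deposited-name groups called Otof higher at 1.34 (adjusted p = 0.0488) and no other of the 7, with 3.37% of genes called higher. Leaving out the library named TRULI 5 d replicate 3 made edgeR call Otof higher at 1.76 (SE 0.34, adjusted p = 0.0278) and Calb2 at 2.33 (SE 0.41, adjusted p = 0.0193), where 2.13% of genes were called higher. The median of the 7 was 0.34 against 0.026 over all genes.

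A single library decided the labelled result. Without the library labelled TRULI 5 d replicate 3, the remaining labelled TRULI libraries are the 2 with little mt-Rnr2, and 3 genes were called lower: Calb2 at -5.12 (SE 0.79, adjusted p = 0.00806), Otof at -3.08 (SE 0.65, adjusted p = 0.0170) and Slc17a8 at -2.84 (SE 0.70, adjusted p = 0.0251). In that fit 8.11% of genes were called lower and 10.7% higher. Markers of other cell types moved with those 2 libraries. The 6 skeletal-muscle markers, of which Myog was at 0 throughout, summed to 34.4 and 90.5 CPM there. In the 5 d controls they summed to between 0.329 and 2.40 CPM. Myod1 alone made up 34.1 and 89.1 CPM of the sums in those 2 libraries. The 7 Schwann-cell markers summed to 1050 and 398 CPM there, against between 210 and 314 CPM in the 5 d controls. The part of these markers in the result was not tested. With that library alone against the 3 controls, all 4 rich in mt-Rnr2, Calb2 was called higher at 2.62 (SE 0.46, adjusted p = 0.0278) and Otof was at 1.93 (SE 0.41, adjusted p = 0.0602). That fit assumes that the lone library varies as the controls do, and 0.777% of its genes were called higher.

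The second comparison asked whether the genes differed 5 d after TRULI had been withdrawn. By label 0 of 7 genes were called by edgeR, where 1% of 12242 genes were called higher and 1.06% lower. Cabp2 alone had an unadjusted p under 0.05, a threshold for which the share of all genes is not given. Cabp2 stood at a log2 fold change of 2.83 (SE 0.70, adjusted p = 0.0741). DESeq2 called it higher at 2.85 (adjusted p = 0.00665), with 6.94% of genes called higher. Kcna10 followed at 1.29 (SE 1.30, adjusted p = 0.573), Otof at 1.19 (SE 0.92, adjusted p = 0.455), Slc17a8 at 0.64 (SE 0.91, adjusted p = 0.696) and Cacna1d at 0.44 (SE 0.93, adjusted p = 0.804). Ctbp2 was at 0.082 (SE 0.44, adjusted p = 0.927), and Calb2 was the only negative value, at -0.93 (SE 0.90, adjusted p = 0.557). Cabp2 was also the 1 gene of 7 whose TRULI libraries both lay above both controls, a pattern found in 27.6% of tested genes. The median of the 7 genes was 0.64 on the log2 scale, against 0.023 over all genes.

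Values that move with the labelled withdrawal groups stand beside this result. Both TRULI libraries had little mt-Rnr2 and both labelled controls had much, so that fraction and the treatment cannot be told apart. The Schwann-cell markers summed to 432 and 592 CPM in the TRULI libraries and to 112 and 168 CPM in the labelled controls. The skeletal-muscle markers summed to 14.4 and 48.2 CPM against 0 and 1.12 CPM, and in both TRULI libraries all of that sum was Myod1. Their part in the result was not tested. By deposited name all 4 withdrawal libraries had little mt-Rnr2, and Cabp2 was again higher in both TRULI libraries, at a fitted 3.38 (SE 1.0, adjusted p = 0.923).

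Which TRULI withdrawal library was counted changed the other genes. Without replicate 1, Kcna10 was called lower at -2.83 (SE 0.95, adjusted p = 0.0173) and Calb2 at -2.98 (SE 0.56, adjusted p = 6.35e-06), where 12.8% of genes were called lower and 11.6% higher. Without replicate 2, Otof was called higher at 2.00 (SE 0.46, adjusted p = 0.00118) and Kcna10 at 2.22 (SE 0.55, adjusted p = 0.00256), where 9.98% of genes were called higher. Cabp2 was called higher in both fits, at 2.83 (SE 0.69, adjusted p = 0.000675) and 2.78 (SE 0.71, adjusted p = 0.00389). Each of these fits has a lone TRULI library that is assumed to vary as the controls do.

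Grouped by deposited name, all 7 genes had a positive fitted change after withdrawal, and 0 were called by edgeR, where 0% of 11568 genes were called in either direction. Calb2 was at 5.42 (SE 1.20, adjusted p = 0.923), Otof at 5.16 (SE 1.07, adjusted p = 0.923), Kcna10 at 3.66 (SE 1.61, adjusted p = 1.0) and Slc17a8 at 3.42 (SE 0.96, adjusted p = 0.923). Both named controls held Calb2 at 3 counts, so its fitted value rests on few counts. Of the 7 genes, 5 had an unadjusted p under 0.05, against 532 of all genes, and 4, Otof, Slc17a8, Cabp2 and Calb2, had both TRULI libraries above both controls, as had 15.2% of tested genes. DESeq2 called Otof at 5.12 (adjusted p = 2.91e-06) and Calb2 at 5.45 (adjusted p = 0.00104) higher, where 0.363% of genes were called higher. Ctbp2 was at 0.095 (SE 0.52).

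**Figure D2:**
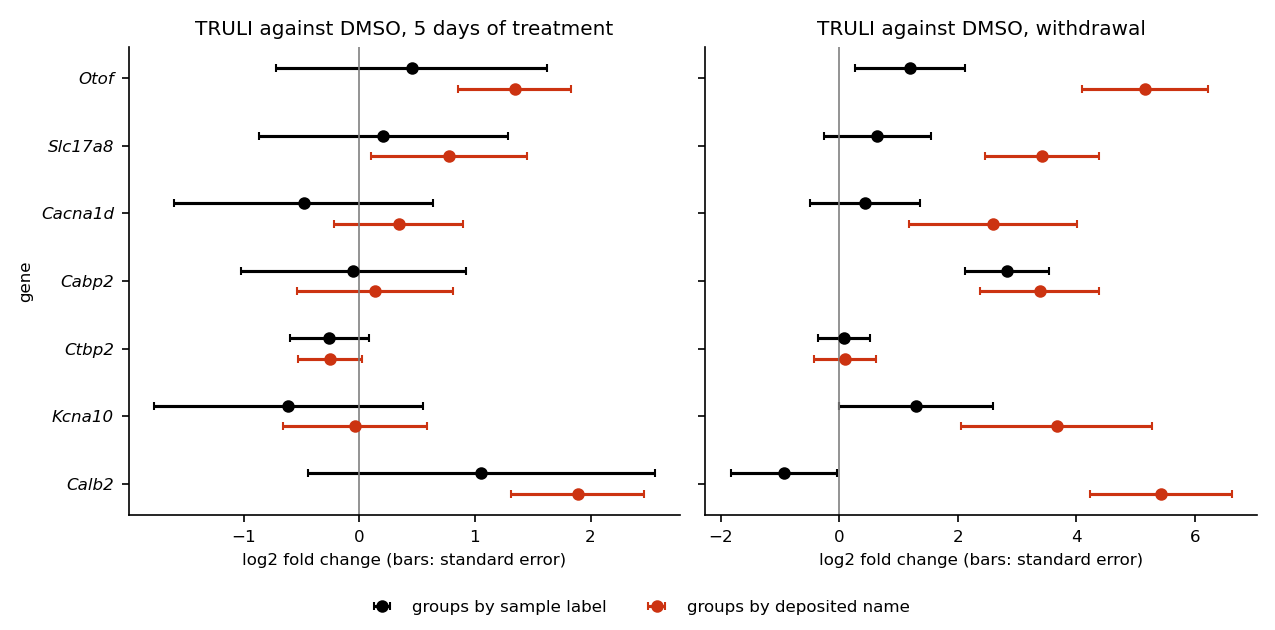
Fitted log2 fold change of TRULI against control from edgeR for the 7 tested genes, at 5 d (left) and after withdrawal (right), with groups by sample label in black and by deposited name in red; bars are standard errors. After withdrawal the grouping by name moves Otof from 1.19 to 5.16 and Calb2 from -0.93 to 5.42, while Ctbp2 stays near 0 in every comparison.

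The effect of TRULI after withdrawal was set against that at 5 d in 1 fit of all 10 libraries. By label 0 of 7 genes differed by edgeR, as did 0% of 12841 genes, with 0 of the 7 at an unadjusted p under 0.05 and 0 called by DESeq2. Cabp2 had the largest difference, 2.89 on the log2 scale (SE 1.39, adjusted p = 0.743), and Calb2 the lowest, -1.99 (SE 2.23, adjusted p = 0.935). By deposited name 0 of 7 passed, and DESeq2 called 0. In edgeR 4 had an unadjusted p under 0.05: Otof, Cabp2, Calb2 and Slc17a8. The share of all genes at that threshold is not given, so nothing is read from this count. Otof differed by 3.84 (SE 1.19, adjusted p = 0.383), and Kcna10, not among those 4, by 3.62 (SE 1.70, adjusted p = 0.534). The median over the 7 genes was 0.74 by label and 3.22 by name, against -0.087 and 0.0092 over all genes. By name every 5 d library was rich in mt-Rnr2 and every withdrawal library had little, so the time and that fraction cannot be told apart.

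Across the 10 libraries the 7 genes differed in how far they varied with Pou4f3, a transcription factor of hair cells. The correlations below are over these 10 libraries, which share the sort, the groups and the difference in mt-Rnr2, and describe them only. Pearson's r of log2 CPM with Pou4f3 was 0.946 for Otof, 0.937 for Calb2, 0.923 for Slc17a8, 0.801 for Kcna10, 0.769 for Cacna1d and 0.693 for Cabp2, and 0.029 for Ctbp2. Otof and Calb2 correlated at 0.917, Otof and Slc17a8 at 0.908, and Otof and Cabp2 at 0.555. Pou4f3 itself ranged 30.2-fold, from 5.75 to 174 CPM. Myo7a, the hair-cell myosin, was absent from the library labelled TRULI 5 d replicate 2 and stood at up to 49.4 CPM elsewhere.

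**Figure D3:**
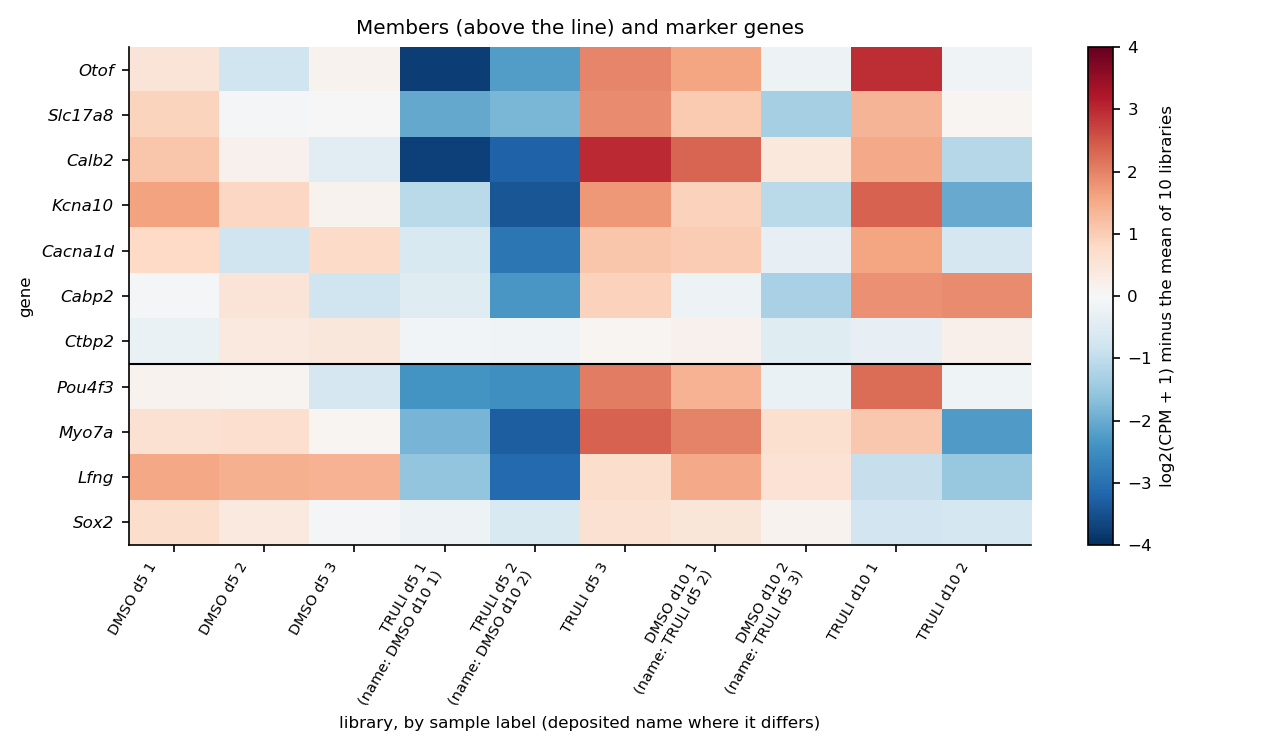
Each cell shows log2(CPM + 1) of a gene in a library minus that gene's mean over the 10 libraries; the 7 tested genes are above the line, and the hair-cell genes Pou4f3 and Myo7a and the supporting-cell genes Lfng and Sox2 below it. Columns are libraries by label, with the deposited name where it differs. The libraries labelled TRULI 5 d 1 and 2 are low for Otof, Slc17a8, Calb2, Pou4f3 and Lfng, and TRULI 5 d 3 and TRULI withdrawal 1 are high for the first 3 and for Pou4f3.

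Dividing each gene by Pou4f3 in the same library narrowed the range of some genes and not of others. Otof per Pou4f3 lay between 0.538 and 2.83, a 5.26-fold range where the CPM had ranged 136-fold, and its median was 1.73. The ratio of Slc17a8 lay between 0.0985 and 0.434, a 4.41-fold range against 25.4-fold in CPM. Calb2 per Pou4f3 still ranged 13.5-fold: it was between 0.538 and 1.04 in the 6 libraries rich in mt-Rnr2 and between 0.0769 and 0.311 in the other 4, so these 2 sets did not overlap. That split was read off the values and was not tested. For Cabp2 the ratio was highest in TRULI withdrawal replicate 2, at 0.774, and in the library labelled TRULI 5 d replicate 1, at 0.641, and lay between 0.0517 and 0.227 in the other 8. Ctbp2 per Pou4f3 ranged 34.4-fold, wider than its 1.93-fold range in CPM.

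**Figure D4:**
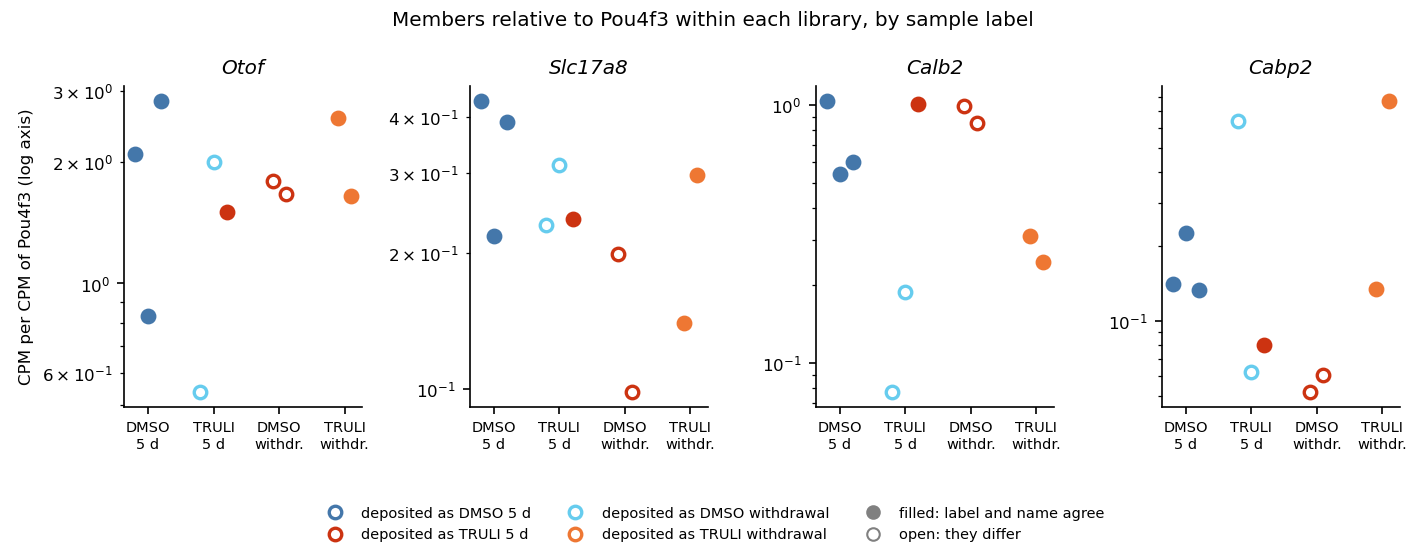
CPM of Otof, Slc17a8, Calb2 and Cabp2 divided by the CPM of Pou4f3 in the same library, on a log axis, with libraries grouped by label and colored by deposited name as in the plot of levels. For Calb2 the 4 libraries low in mt-Rnr2, the 2 open circles of TRULI 5 d and the 2 TRULI withdrawal libraries, lie at 0.0769 to 0.311, under all the others.

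Among 11917 protein-coding genes that passed the filter over the 10 libraries, the gene with the highest Pearson correlation of log2 CPM was found for each of the 7 genes. For Calb2 it was Cib2 (r = 0.987), which encodes a calcium-binding partner of the mechanotransduction channel, and for Kcna10 it was the related Cib3 (r = 0.986). For Cacna1d it was Dnmbp (r = 0.977), for Slc17a8 Mindy4b-ps (r = 0.972), for Otof Rprm (r = 0.969) and for Cabp2 Myo1h (r = 0.959). For Ctbp2 the highest value was the lowest of the 7, with Zfp799 (r = 0.864). Each is the highest of many values over 10 libraries, and nothing about function follows from it.

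Other genes of the same systems were counted from lists, beside the same shares of all genes called: 0.00903% higher and 0% lower at 5 d by label, 2.05% and 1.02% by name, 1% and 1.06% after withdrawal by label and 0% by name. Of 49 further genes of the ribbon synapse and exocytosis, 48 were matched, and Rims1, Unc13c and Slc32a1 had no count in any library. At 5 d by label 25 were tested and 0 were called, with a median log2 fold change of 0.068; by name 26 were tested and 0 were called, with a median of -0.027. After withdrawal 25 were tested under either grouping and 0 were called, with medians of 0.15 by label and 0.29 by name. Of 36 further channels and receptors, 5 had no count in any library. At 5 d 0 of the 14 tested by label were called, and by name 2 of 15. Kcnq3, a subunit of the M-type potassium channel, was higher at 2.60 (SE 0.52, adjusted p = 0.0239), from 2.97 ± 1.6 CPM in controls to 17.3 ± 6.34 CPM (SD, n = 3 each), and the inward rectifier Kcnj16 was lower at -1.19 (SE 0.25, adjusted p = 0.0297). After withdrawal 1 of 17 was called by label, the ATP-gated channel P2rx2, lower at -2.04 (SE 0.34, adjusted p = 0.0425), and 0 of 14 by name.

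Of 30 further calcium buffers, sensors and pumps, 0 of the 15 tested were called at 5 d under either grouping, with medians of 0.23 by label and -0.033 by name. After withdrawal 1 of the 18 tested by label was called, Tesc, which encodes the calcium-binding protein tescalcin and was at 0 counts in both labelled controls. It stood at 34.1 and 6.10 CPM in the TRULI libraries, at least 28.3-fold higher against a floor of 3 counts per library. It was also at 10.2 and 21.9 CPM in the libraries labelled TRULI 5 d replicates 1 and 2. By name 0 of 17 were called, and the medians were 0.88 by label and 0.055 by name. The hair-cell markers held 0 called of 19 at 5 d by label, 1 of 19 by name, and 0 of 20 and 0 of 14 after withdrawal, with medians of 0.60, 1.24, 0.40 and 2.07. The gene called by name was Espn, an actin bundler of stereocilia, at 2.70 (SE 0.62, adjusted p = 0.0426), from 6.48 ± 3.78 CPM to 40.7 ± 34.9 CPM (SD, n = 3 each). With the named number as a replicate block, 4.1% of all genes were called higher at 5 d, against 2.05% without it, and more genes of the lists were called as well. Of the ribbon synapse list 2 of 26 were then higher, Pclo, which encodes the active-zone scaffold piccolo, at 1.87 (SE 0.45, adjusted p = 0.0225) and Clrn1, the Usher syndrome gene that encodes clarin, at 1.61 (SE 0.34, adjusted p = 0.0111). The channels and receptors called higher included Kcnq3 and the acetylcholine receptor subunit Chrna9 at 1.17, Kcnj16 was lower, and of the calcium genes Calml4 was lower at -1.10. Of the 19 hair-cell markers 8 were higher, among them Espn at 2.52, Cdh23 at 2.10, Myo7a at 1.30 and Pou4f3 at 1.26. Beside them 1 gene each was called of the neuron, macrophage and fibroblast markers (Nefl, Cd68 and Col1a2, higher) and of the supporting-cell and Schwann-cell markers (Hes1 and Egr2, lower).

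After withdrawal by label, 3 of the 16 supporting-cell markers tested were called lower with TRULI than in controls, where 1.06% of all genes were called lower. They were Sparcl1 at -2.86 (SE 0.50, adjusted p = 0.0445), the glutamate transporter Slc1a3 at -2.50 (SE 0.37, adjusted p = 0.0327) and Lfng at -2.32 (SE 0.44, adjusted p = 0.0463). At 5 d under either grouping 0 were called lower, and 0 after withdrawal by name. The libraries labelled TRULI 5 d replicates 1 and 2, deposited as the withdrawal controls, were low as well. They held Sparcl1 at 305 and 159 CPM, Slc1a3 at 721 and 659 CPM and Lfng at 63.8 and 21.2 CPM. These libraries and the TRULI withdrawal libraries all had little mt-Rnr2, and its part was not tested. Of the 6 roof- and dark-cell markers, Oc90 was called higher at 2.95 (SE 0.56, adjusted p = 0.0189) and Slc26a4 lower at -1.50 (SE 0.28, adjusted p = 0.0167) at 5 d by name. Myod1, a skeletal-muscle marker, was at 0 counts in both labelled withdrawal controls and at 14.4 and 48.2 CPM with TRULI, at least 44.2-fold higher against the same floor. It was also at 34.1 and 89.1 CPM in the libraries labelled TRULI 5 d replicates 1 and 2, which were deposited as the withdrawal controls. By name its fitted change after withdrawal was therefore negative, at -0.98 (SE 0.71), and it was not called. In edgeR's fits by label and by name, without the block or any other alternative, no gene of the neuron, Schwann-cell, melanocyte, macrophage, fibroblast or endothelium lists was called. Endothelial markers summed to at most 2.96 CPM and macrophage markers to at most 18.1 CPM in any library, and the neuron markers to between 91.9 and 176 CPM.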

How the data were processed

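Expected counts for each gene and library were deposited by the authors, who mapped reads to GRCm38/mm10 with STAR; the counting program is not given in the sources used here, and the columns are those RSEM writes. The authors applied no normalization to them. The tables also give an effective length in bases. Library preparation is given differently by the methods (QIAseq FX) and by the labels (poly(A) selection and another kit). The expected counts were rounded and matched to GENCODE M21 (48349 of 48709 genes). Promoter sequences came from RefSeq for GRCm38.p6.

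Groups came from the labels, with the deposited names as an alternative. Each comparison was fitted on all genes with edgeR 4.0.16 (R 4.3.3): filterByExpr, TMM, the quasi-likelihood test and Benjamini-Hochberg adjustment, with the interaction in a fit of all 10 libraries. The standard error is the log2 fold change divided by the root of F. CPM use TMM factors over all 10 libraries, and FPKM divide expected counts by effective length and the protein-coding total. Correlations used log2 CPM with a prior count of 1. Alternatives were DESeq2 1.42.0, its size factors, no filter, the replicate number as a block, protein-coding genes only, a single fit for both times and leaving out each library. The members and lists were chosen with earlier results of these data known. The 9 genes, Myo7a, Pou4f3, Lfng and Sox2 are named throughout. Of the lists, the genes called with the largest changes are named, and P2rx2, Kcnj16, Slc1a3, Lfng, Slc26a4 and the genes called only with the block were added after their values were seen.

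By label, same-number libraries at 5 d did not deviate together, with correlations of -0.102, 0.0455 and -0.147 across genes. By deposited name all 3 pairs did (0.315, 0.152 and 0.251), and the number was then taken as a pairing that rests on the names and on these same libraries. No 2 libraries held the same counts. The code was tested on simulated counts.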

Additional observations from a re-analysis of the deposited data

How the results depend on the processing

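Cacna1d and Cabp2 were negative at 5 d by label and positive by deposited name, at 0.34 and 0.14, as with DESeq2 on those names (0.34 and 0.13). Without the filter on low counts they were at 0.34 and 0.14 by name, and with the named number as a block Cacna1d was at 0.33. With the 4 contradicting libraries left out, Cacna1d, Cabp2 and Kcna10 were at 0.74, 1.07 and 0.80. Pairing libraries by the number in the labels (a replicate block) turned Otof to -1.37, Slc17a8 to -1.31 and Calb2 to -2.82 at 5 d, and called 0 of the 7. Calb2 after withdrawal, negative by label, was at 5.42 by name, 5.45 with DESeq2, 5.04 with the block and 5.42 without the filter. The cause of these turns was not tested.

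At 5 d, where the labelled groups gave 0 calls among the 7, the deposited names gave 1 gene higher with DESeq2 (3.37% of all genes), 1 with the block (4.1%) and 2 without the filter (3.22%), and the libraries whose label and name agree gave 1 (0.777%). After withdrawal DESeq2 (6.94%) and the replicate block of the labels (5.92%) gave 1 gene higher each, Cabp2, and the fit without the filter gave 2 (5.44%). By name DESeq2 gave 2 (0.363%), and the fit without the filter 4 (0.788%). For the difference between the times, names without the filter gave 3 (1.44%). Beyond Cabp2 by label and Calb2 by name, the block changed no call among the 7 genes. Over both groupings, leaving out a library in turn gave 0 to 2 genes higher and 0 to 3 lower at 5 d. The 3 lower came without the library labelled TRULI 5 d replicate 3, where 8.11% of all genes were called lower. A fit with 2 higher, without the library named TRULI 5 d replicate 3, called 2.13% of all genes higher. Each such fit after withdrawal leaves a lone library in a group, so its calls are not counted here. The log2 fold changes at 5 d then ranged from -3.08 to 1.76 for Otof, -2.84 to 1.29 for Slc17a8, -2.04 to 0.70 for Cacna1d, -1.32 to 0.58 for Cabp2, -3.09 to 0.45 for Kcna10 and -5.12 to 2.42 for Calb2. After withdrawal they ranged from -1.11 to 6.26 for Otof, -0.25 to 3.94 for Slc17a8, -1.37 to 8.82 for Cacna1d, -2.83 to 9.97 for Kcna10, -2.98 to 6.22 for Calb2 and -0.22 to 0.42 for Ctbp2. The highest values of Cacna1d and Kcna10 are against a lone control library at 0 and are no measure of size.

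Depth limits Bsn and Calb1, which could not be tested, and the 2 libraries with 3 counts of Calb2. With 2 libraries a group after withdrawal and contradicting labels in 4 of 10, the direction of Otof, Slc17a8, Cacna1d, Kcna10 and Calb2 at both times, and of Cabp2 at 5 d, depends on which grouping and which libraries are used. Ctbp2 was called in no alternative.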
